A study of Homo sapiens with 12 samples.

Results

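MHCC-97H, a human hepatocellular carcinoma cell line, was compared under 2 transfections, one with si-CENPU, which targets CENPU by RNA interference (3 libraries), and one with the control si-NC (3 libraries). The labels give the first group the genotype CENPU knockdown and the second the genotype WT, and name the cells hepatoma cells, kept in DMEM with fetal bovine serum. The sources used here do not state the time after transfection, the dose or the sequences of the small interfering RNAs. The genes described were those with a mean of at least 1 TPM (a transcript abundance that has the same total in each library) over these 6 libraries, 10700 of the 60664 gene identifiers in the table. Of these, 9358 are annotated as protein-coding, and 8005 also averaged at least 1 TPM in Huh-7, the other line of the study. At the limit, 267 of the genes averaged 1 to under 1.1 TPM, and 321 genes that were left out averaged 0.9 to under 1 TPM. The other 6 libraries of the study are of Huh-7 with the same 2 treatments.

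CENPU belongs to the constitutive centromere-associated network. This inner kinetochore layer sits on CENP-A chromatin throughout the cell cycle. The outer kinetochore is built on this layer in mitosis, binds microtubules and hosts the spindle checkpoint, and CENPU with its partner CENPQ helps to bring the mitotic kinase PLK1 to the kinetochore. E2F transcription factors, held in check by the pocket proteins, drive genes of DNA replication and the cell cycle in dividing cells, liver cancer cells included.

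The labels leave unsaid whether replicate libraries stem from separate cultures. All p-values and standard errors therefore reflect only the spread between libraries, which may be technical. In the fit across genes this spread was pooled over the libraries of both lines, Huh-7 included. For genes with little spread in Huh-7, its standard errors and p-values can thus be smaller than MHCC-97H alone would give. Since TPM does not record how many reads were counted, the depth is unknown and counting intervals are not given. The 6 columns summed to between 998933 and 999065 TPM, with 18895 to 20068 genes above 0 and mean correlations to the other 5 libraries from 0.965 to 0.971. Mitochondrially encoded genes took 4.41% to 6.30% of the TPM. Of the 10700 genes, 229 were listed at 0 in at least 1 library, which may be a failed estimate rather than no RNA. The label was checked against marker genes. Of the epithelial markers, 3 of 4 averaged at least 1 TPM, and the list summed to between 2883 and 3457 TPM per library. Nearly all of this came from keratins 8 and 18 (means of 2079 and 1142 TPM). EPCAM was near the limit, at a mean of 1.31 TPM and at 0.62 TPM in si-CENPU replicate 3, and CDH1 averaged 0.240 TPM. Among hepatocyte markers 0 of 8 averaged 1 TPM, the highest value of any of them in any library being 0.820 TPM, and 0 of 3 fetal liver markers did. Of the other lists, 1 of 4 biliary markers (KRT7), 1 of 6 fibroblast or stellate markers (PDGFRB), 1 of 4 lymphoid markers, and 0 of 4 endothelial and 0 of 4 myeloid markers averaged at least 1 TPM.

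The targeted gene was low in all libraries and lower after si-CENPU. CENPU (ENSG00000151725, chromosome 4, 184694618 to 184734133, minus strand) stood at 1.17, 0.83 and 0.89 TPM with si-NC and at 0.22, 0.45 and 0.24 TPM with si-CENPU. The groups did not overlap, and the mean was 68.5% lower, at 0.303 ± 0.127 against 0.963 ± 0.181 TPM (SD, n = 3). On the log2(TPM + 1) scale, where low genes show less than their true change, the difference of means was -0.59. The exact two-sided permutation test gave p = 0.1, the smallest that 3 against 3 libraries allow. In these bulk samples, fewer cells expressing a gene and less RNA per cell cannot be told apart. With a mean of 0.633 TPM over the 6 libraries, CENPU lay under the limit of the test across genes. E2F1, the cell cycle transcription factor, also lay under it. It was listed at 0.3, 0.1 and 0.2 TPM with si-NC and at 0.09, 0 and 0 TPM with si-CENPU (exact two-sided permutation p = 0.1).

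**Figure D1:**
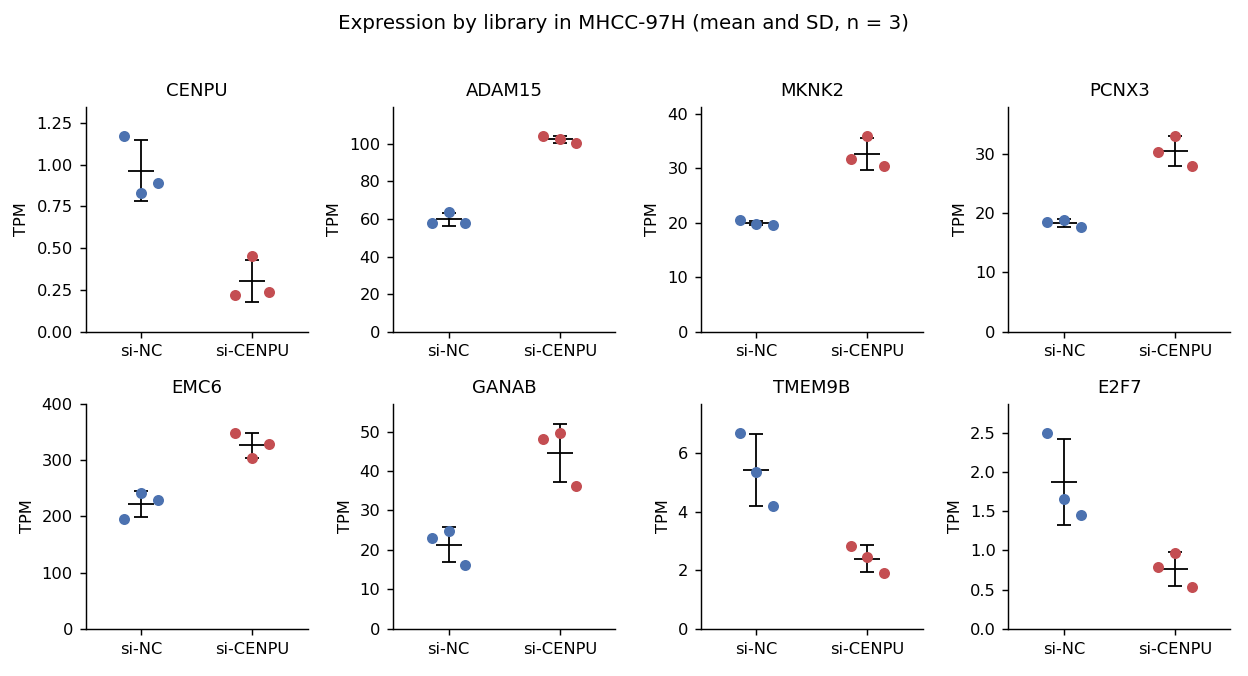
TPM of 8 genes in each MHCC-97H library (points), with the mean and SD of each group of 3 (bars), si-NC in blue and si-CENPU in red; each axis starts at 0. CENPU lay at 0.83 to 1.17 TPM with si-NC, and with si-CENPU at 0.22 to 0.45 TPM, and ADAM15 at 57.7 to 63.63 and 100.52 to 104.03 TPM. In none of the 8 genes did the groups overlap. For all but CENPU this was a condition of the choice. Among all genes tested, groups did not overlap for 3.16% in the higher and 3.99% in the lower direction.

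Across the 10700 genes, limma called 1 gene at a Benjamini-Hochberg adjusted p below 0.05 (0.00935% of those tested). That gene was ADAM15, which encodes a membrane-anchored disintegrin and metalloproteinase that binds integrins. ADAM15 (ENSG00000143537, chromosome 1, 155050566 to 155062775, plus strand) stood at 57.75, 63.63 and 57.7 TPM with si-NC and rose to 104.03, 102.34 and 100.52 TPM with si-CENPU. The log2 change was 0.77 (95% interval 0.57 to 0.97; adjusted p = 0.0360). All 3 si-CENPU libraries lay above all 3 si-NC libraries, by more than the spread within either group. The fit took its estimate of the spread from the libraries of both lines. Fitted on the 6 MHCC-97H libraries alone, the log2 change was the same and the adjusted p was 0.256, so that no gene passed. Trimmed-mean scaling of the libraries gave ADAM15 a log2 change of 0.84 and an adjusted p of 0.0945.

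A RefSeq promoter stretch of ADAM15 is shown because it was the lone gene that passed. The stretch is 170 bases upstream of the RefSeq start, with the 30 bases next to the start left out (GRCh38.p14, chr1:155051116-155051285, plus strand). It lies 550 to 719 bases inside the wider span that GENCODE 29 gives the gene, ending before the exons that GENCODE 29 annotates as untranslated, and 79.4% of its bases are G or C.

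ADAM15: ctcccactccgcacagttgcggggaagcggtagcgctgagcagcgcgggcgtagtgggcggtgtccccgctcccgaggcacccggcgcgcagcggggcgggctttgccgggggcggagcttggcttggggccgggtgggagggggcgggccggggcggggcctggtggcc

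Of 21 tested genes from the surroundings of ADAM15 on chromosome 1, itself included, ADAM15 alone had an unadjusted p below 0.05, and 10 had log2 changes below 0. Groups did not overlap for 2 of the 21 in the higher direction (ADAM15 and PMVK), against 3.16% of all genes. In the lower direction this was 1 (SCAMP3), against 3.99%. EFNA3, an ephrin ligand, stood at 7.99, 11.2 and 8.86 TPM with si-NC, and with si-CENPU at 12.37, 12.26 and 9.7 TPM (log2 0.27, SE 0.166). EFNA4, another ephrin of the cluster, stood at 16.91, 20.39 and 20.61 TPM against 16.82, 18.12 and 17.46 TPM (log2 -0.13). Among ADAM proteases, their inhibitors and partners, 15 of 24 genes were tested. ADAM10 and ADAM17, the main sheddases of the family, had log2 changes of -0.14 and -0.09. TIMP2, an inhibitor of metalloproteinases, stood at 26.2, 26.64 and 18.15 TPM with si-NC and at 15.92, 18.2 and 14.17 TPM with si-CENPU (log2 -0.52, SE 0.196). Its highest si-CENPU library was above its lowest si-NC library.

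At an unadjusted limma p below 0.05, 180 genes (1.68%) were higher with si-CENPU and 227 (2.12%) lower. Libraries of the groups did not overlap for 338 genes (3.16%) in the higher and 427 (3.99%) in the lower direction. None but ADAM15 passed the adjustment, so the genes below are given by their values. The 14 higher genes with the smallest p among those whose groups did not overlap had log2 changes from 0.34 to 1.34 and adjusted p from 0.0360 to 0.639. They were ADAM15, MKNK2, EMC6, PCNX3, SPINDOC, RGS19, PDXP, RAP2C-AS1, GANAB, GPAA1, TLE5, OGFR, MCRIP2 and FOXD1-AS1, 12 of them protein-coding. Their median level was 34.5 TPM. Their median transcript GC content was 61.9%, against 52.0% for all tested genes and 50.7% for the 14 lower genes given below.

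MKNK2, a kinase that phosphorylates the cap-binding protein eIF4E, stood at 20.46, 19.84 and 19.64 TPM with si-NC and at 31.67, 35.89 and 30.34 TPM with si-CENPU (log2 0.68, adjusted p = 0.154). It was the lone member of the cap-dependent translation list, 19 genes tested, at an unadjusted p below 0.05. The median of that list was -0.12, and 16 of the 19 lay below 0. EMC6, a subunit of the complex that inserts proteins into the endoplasmic reticulum membrane, stood at 195.7, 241.47 and 229.6 TPM against 347.91, 303.67 and 328.5 TPM (log2 0.56, adjusted p = 0.154). The other 9 tested subunits and paralogues of its complex had log2 changes between -0.29 (EMC7) and 0.08 (EMC9), each at an unadjusted p of at least 0.05.

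PCNX3, a pecanex family membrane protein, stood at 18.49, 18.82 and 17.59 TPM with si-NC and at 30.33, 33.0 and 27.98 TPM with si-CENPU (log2 0.70, adjusted p = 0.154). GANAB trims glucose from glycans of new glycoproteins as part of glucosidase II, and was at 23.13, 24.71 and 16.23 TPM against 48.01, 49.56 and 36.11 TPM (log2 1.03, adjusted p = 0.335). RGS19, a regulator of G protein signalling, stood at 8.84, 12.89 and 9.6 TPM against 17.61, 17.25 and 18.8 TPM (log2 0.74, adjusted p = 0.214). In these genes the si-CENPU libraries lay above every si-NC library, as the choice required, with the spread widest in GANAB, whose replicate 3 was lowest in both groups.

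SPINDOC, which binds the histone reader SPIN1, stood at 52.76, 56.21 and 57.43 TPM against 76.21, 80.58 and 81.05 TPM (log2 0.51). PDXP, a phosphatase of pyridoxal phosphate and cofilin, stood at 25.5, 31.62 and 26.59 TPM against 42.73, 41.13 and 41.22 TPM (log2 0.57). OGFR, a receptor for opioid growth factor, was at 25.7, 31.89 and 26.9 TPM against 40.16, 42.6 and 38.14 TPM (log2 0.51). The remaining genes of this set ranged in log2 change from 0.34 for TLE5, a corepressor of the Groucho family, to 1.34 for the antisense gene RAP2C-AS1. GPAA1, a subunit of the transamidase that attaches GPI anchors, had 0.46 and MCRIP2 0.39. RAP2C-AS1 was listed at 0.02, 0.06 and 1.19 TPM with si-NC and at 1.74, 2.94 and 2.58 TPM with si-CENPU. Since no source used here states the strand setting of the counting, an antisense gene and its partner cannot be told apart.

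The 14 lower genes chosen in the same way were mostly of low expression, with a median level of 2.52 TPM, log2 changes from -2.81 to -0.30 and adjusted p from 0.335 to 0.639. Of these, 6 averaged under 1 TPM with si-CENPU and passed the limit through the si-NC group, where they are high (GNE, E2F7, FOXC2-AS1, RGPD5, ENSG00000283765 and ENSG00000234160), so that their direction was favoured by the limit. The same held for 1 of the 14 higher genes, RAP2C-AS1, with si-NC. Over all genes, 302 averaged under 1 TPM with si-CENPU and 163 with si-NC. GNE, the bifunctional enzyme that starts sialic acid synthesis, stood at 2.03, 1.9 and 1.5 TPM with si-NC and at 0.88, 0.81 and 0.77 TPM with si-CENPU (log2 -0.62). TMEM9B, a lysosomal membrane protein, stood at 6.68, 5.36 and 4.21 TPM against 2.82, 2.47 and 1.9 TPM (log2 -0.91). E2F7, an atypical E2F repressor, stood at 2.49, 1.66 and 1.45 TPM against 0.79, 0.97 and 0.53 TPM (log2 -0.69). The ratios of mean TPM were 0.453, 0.442 and 0.409, and the groups did not overlap, as the choice required.

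ID1, a target of BMP and TGF-beta signalling, was the most abundant of these genes, at 83.89, 89.57 and 76.82 TPM against 72.12, 64.62 and 64.47 TPM (log2 -0.31). EVA1B stood at 14.63, 13.61 and 15.5 TPM against 9.75, 9.66 and 11.24 TPM (log2 -0.48). ICAM3, an adhesion ligand of leukocyte integrins, stood at 13.37, 12.39 and 12.28 TPM against 10.09, 9.78 and 10.43 TPM (log2 -0.30). CDH13, a GPI-anchored cadherin, had a log2 change of -0.46, the scaffold protein DLG3 had -0.49 and MEGF6 had -0.52. RGPD5, which belongs to a family of near-identical RANBP2 copies and is uncertain for that reason, stood at 2.55, 3.01 and 0.84 TPM against 0.5, 0.69 and 0.28 TPM. FOXC2-AS1, ENSG00000283765, ENSG00000234160 and ENSG00000277694 completed the set. ENSG00000277694, a short RNA gene, was at 11.39, 8.92 and 10.39 TPM with si-NC and listed at 0, 0 and 3.06 TPM with si-CENPU.

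**Figure D2:**
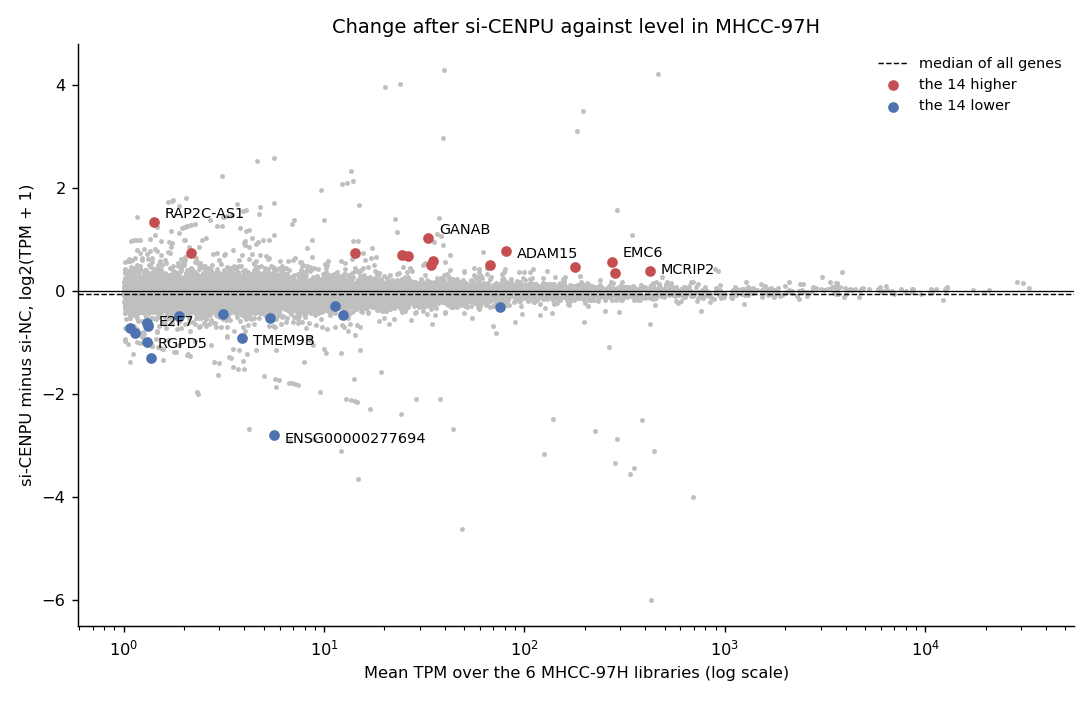
Log2 change (si-CENPU minus si-NC) of each of the 10700 genes against its mean TPM over the 6 MHCC-97H libraries, on a log axis, with the 14 higher genes in red, the 14 lower in blue and the median of all genes as a dashed line. The higher genes had a median level of 34.5 TPM and the lower genes of 2.52 TPM; the dashed line lies at -0.07, and most of the largest changes belong to grey points of short RNA genes.

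Most genes lay slightly lower with si-CENPU. The median log2 change was -0.07, and 7035 genes (65.7%) were below 0. This share moved with the scaling of the libraries: it was 49.9% under trimmed-mean scaling and 50.2% after a correction for transcript GC content. Both methods centre the libraries on one another, so that a share near 50% was fixed in advance. Whether the shift as deposited lay in the cells or in the libraries was not tested. The share as deposited also differed by GC content. When genes were ranked by GC content and cut into 5 equal groups, in the lowest group the median change was -0.12 and 77.9% were below 0, and in the highest group these were 0.01 and 45.1%. The libraries differed in the same respect: across genes, the Spearman rho between a library's deviation from the mean of the 6 and GC content was -0.557, -0.247 and 0.5 in si-NC replicates 1 to 3 and 0.0517, 0.0619 and 0.311 in si-CENPU replicates 1 to 3. Genes are not independent replicates, and the part of GC content in the changes of single genes was not tested beyond this correction. Without si-NC replicate 3, 784 genes were lower at an unadjusted p below 0.05 in place of 227, and without si-CENPU replicate 3 the share below 0 was 48.8%. Under the GC correction 8 genes passed the threshold, 6 higher and 2 lower, among them ADAM15, MKNK2, PCNX3, GANAB and TPM4 higher and TMEM9B and TOMM20 lower. Under trimmed-mean scaling 3 did (GANAB and TPM4 higher, TMEM9B lower). On the 6 libraries alone, 0 passed with either scaling, the smallest adjusted p being 0.0571 and 0.291.

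**Figure D3:**
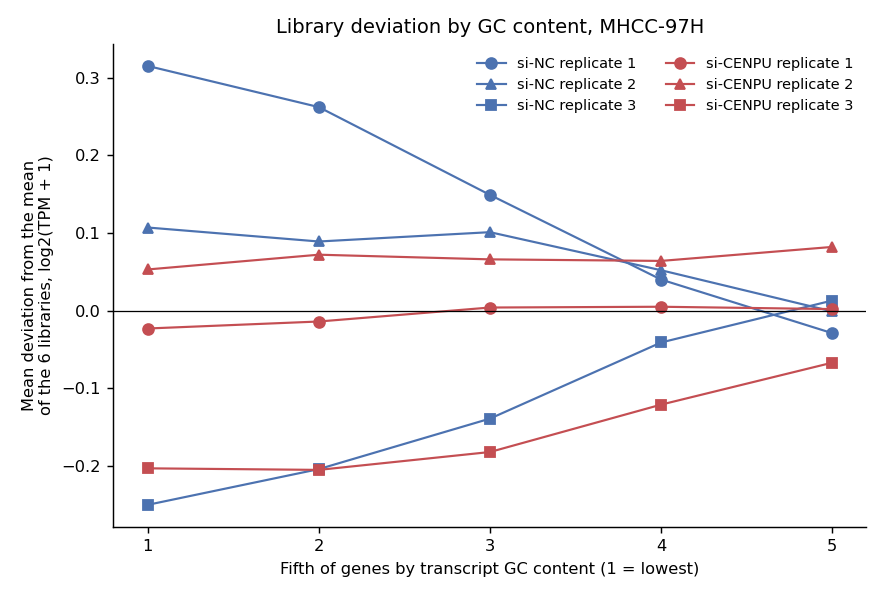
Mean deviation of each MHCC-97H library from the mean of the 6, on the log2(TPM + 1) scale, for 5 equal groups of genes by transcript GC content, si-NC in blue and si-CENPU in red. In the lowest group si-NC replicate 1 lies at 0.315 and si-NC replicate 3 at -0.250, while the 3 si-CENPU libraries lie between -0.203 and 0.053.

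Gene lists were read against that shift. Of 45 lists with at least 5 tested members, 43 had a median below 0, and 25 under trimmed-mean scaling. That scaling centres the median gene near 0, which by itself lowers this count. Counts at an unadjusted p below 0.05 compare with 1.68% higher and 2.12% lower among all genes, and medians with -0.07 as deposited and 0.00 under trimmed-mean scaling and under the GC correction. No list had a called gene other than those that hold ADAM15.

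**Figure D4:**
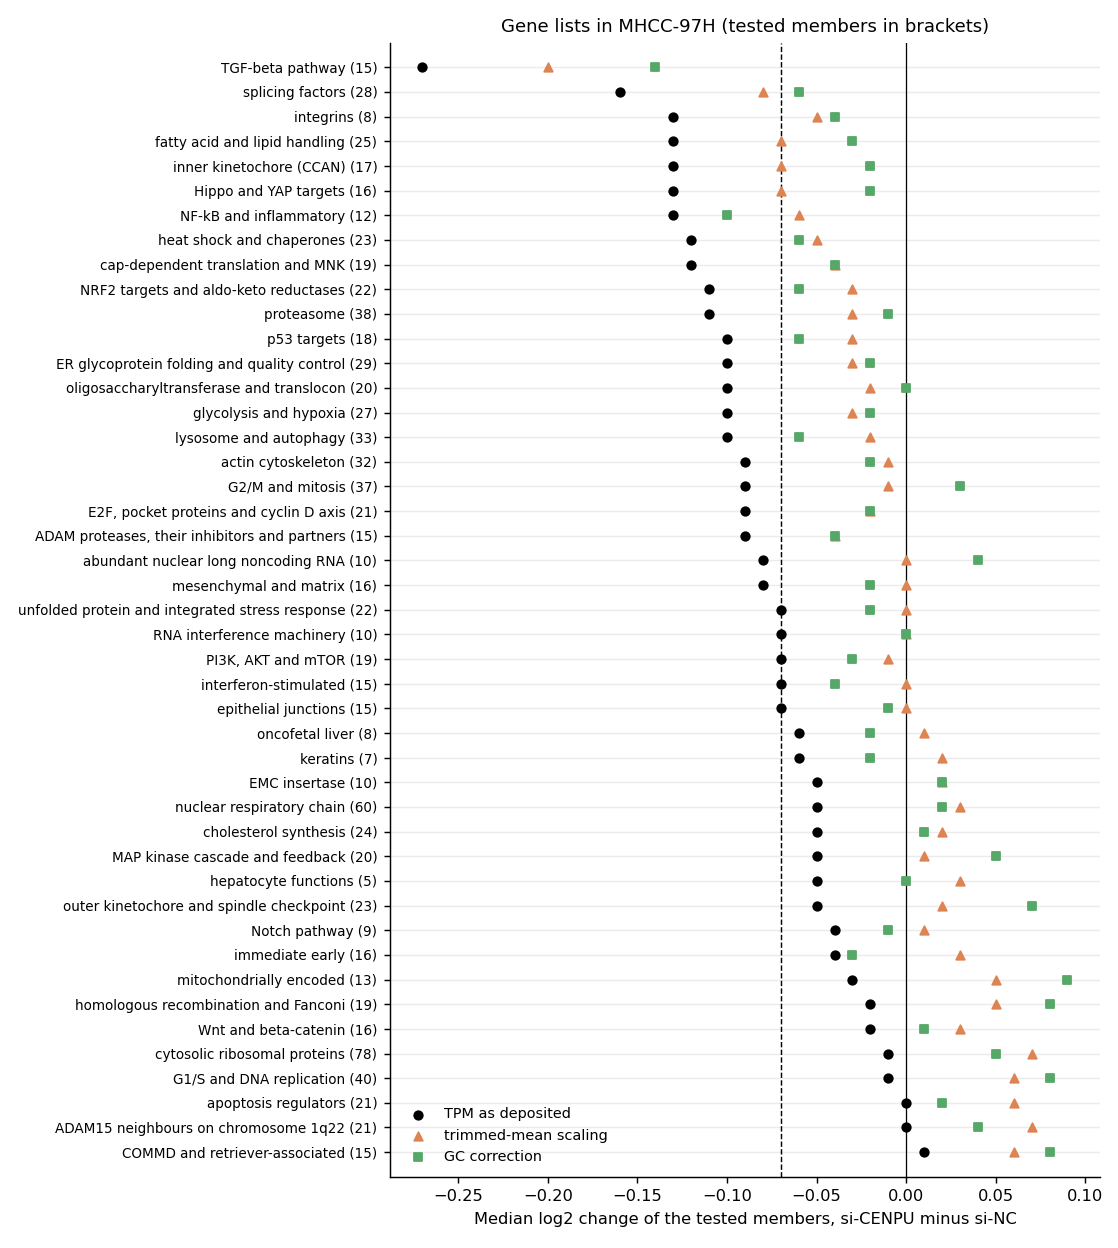
Median log2 change (si-CENPU minus si-NC) of the tested members of each of 45 gene lists, for TPM as deposited (circles), trimmed-mean scaling (triangles) and GC correction (squares); the dashed line is the median of all genes as deposited. The TGF-beta list has the lowest median under each of the 3, at -0.27, -0.20 and -0.14.

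Partners of CENPU in the inner kinetochore had small differences. Of 21 genes of this complex and its CENP-A loaders, 17 were tested, 12 were below 0 and the median was -0.13 (-0.07 under trimmed-mean scaling and -0.02 after the GC correction). CENPI alone had an unadjusted p below 0.05, at 1.87, 1.66 and 0.93 TPM with si-NC, and with si-CENPU at 0.7, 0.86 and 1.13 TPM (log2 -0.38, SE 0.166), and its groups overlapped. It averaged 0.897 TPM with si-CENPU and passed the limit through the si-NC group, so that its direction was favoured by the limit. CENPQ, the direct partner of CENPU, stood at 2.11, 1.99 and 1.07 TPM against 1.1, 1.26 and 1.52 TPM (log2 -0.23, SE 0.198), and CENPK, which lies in another arm of the complex, at 3.35, 3.24 and 3.87 TPM against 2.58, 3.94 and 1.48 TPM (log2 -0.34, SE 0.265). CENPT, which links the inner to the outer kinetochore, stood at 20.1, 20.5 and 20.5 TPM against 19.42, 20.46 and 15.27 TPM (log2 -0.15). In the outer kinetochore and spindle checkpoint list, 1 of 23 tested genes passed the unadjusted threshold. ZW10, which brings dynein to kinetochores, stood at 1.52, 1.21 and 0.61 TPM against 1.66, 1.77 and 1.61 TPM (log2 0.37, SE 0.160).

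Cell cycle genes had small differences. Of 37 genes of G2/M and mitosis, all tested, 0 had an unadjusted p below 0.05, and their log2 changes ran from -0.23 to 0.11 with a median of -0.09. ANLN, a scaffold of the cytokinetic ring, had the smallest p among them, at 11.91, 9.84 and 6.72 TPM against 8.32, 7.83 and 7.07 TPM (log2 -0.23, SE 0.212). UBE2C, the ubiquitin-conjugating enzyme of the anaphase-promoting complex, stood at 309.8, 343.72 and 294.33 TPM against 306.64, 300.8 and 280.36 TPM (log2 -0.09, SE 0.103). These groups overlapped. Of 40 genes of G1/S and DNA replication the median was -0.01 (0.06 under trimmed-mean scaling), and 1 passed the unadjusted threshold. TK1, the thymidine kinase of S phase, stood at 115.02, 138.17 and 135.62 TPM with si-NC and at 153.75, 164.26 and 146.64 TPM with si-CENPU (log2 0.26, SE 0.0854), with the groups apart. GINS2, a subunit of the replicative helicase, stood at 21.17, 16.38 and 12.65 TPM against 21.89, 23.1 and 18.2 TPM (log2 0.34, SE 0.210).

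In the list of E2F factors, pocket proteins and the cyclin D axis, 21 of 25 genes were tested, 2 were lower at an unadjusted p below 0.05 and 0 were higher. Its median was -0.09 (-0.02 under trimmed-mean scaling). The 2 were E2F7 and E2F5. E2F7 averaged 0.763 TPM with si-CENPU and passed the limit through the si-NC group, so that its direction was favoured by the limit. E2F5, which works with the pocket protein p130 in quiescent cells, stood at 3.18, 1.89 and 1.87 TPM against 1.31, 1.17 and 1.43 TPM (log2 -0.50, SE 0.209). The inhibitors of cyclin-dependent kinases CDKN1C (log2 -0.34, SE 0.153) and CDKN1A (log2 -0.28, SE 0.138) also had groups that did not overlap. With E2F5 and E2F7, the latter favoured by the limit, this makes 4 of 21 in the lower direction, against 3.99% of all genes. RBL1, which encodes the pocket protein p107, went the other way, at 2.26, 3.03 and 4.82 TPM with si-NC, and with si-CENPU at 3.47, 7.75 and 7.38 TPM (log2 0.70, SE 0.365), and its groups overlapped. CDKN2A, the locus of p16 and ARF, was high in every library, at 1094.04 to 1274.83 TPM with si-NC, and with si-CENPU at 1175.36 to 1300.15 TPM, while RB1 stood at 0.84 to 1.30 TPM over the 6.

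E2F factors bind GC-rich sites that often lie close to the start of replication genes. The RefSeq promoter windows were searched for TTTCCCGC, TTTCGCGC, TTTGCCGC and TTTGGCGC on both strands in the 250 bases before each start, counting overlapping matches. Of all 35116 windows, 2.79% held one, and of the 11541 windows of tested genes, 4.49%. By gene, 6.08% of the tested genes with a window had a match. In the G1/S and replication list, 14 of the 34 genes with a window had one. Those 14 had a median log2 change of 0.01, and the 20 without one had -0.05. Of the 11 higher and 9 lower genes of the sets above that had a window, 0 held a match, which says little for so few genes at a share of 6.08%. The stretches are shown for the lowest and the highest gene of the E2F list, E2F7 and RBL1, and for MCM6, a subunit of the replicative helicase with matches on both strands, 170 bases each (GRCh38.p14, minus strand, at chr12:77065581-77065750, chr20:37095998-37096167 and chr2:135876444-135876613), with matches in capitals.

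E2F7: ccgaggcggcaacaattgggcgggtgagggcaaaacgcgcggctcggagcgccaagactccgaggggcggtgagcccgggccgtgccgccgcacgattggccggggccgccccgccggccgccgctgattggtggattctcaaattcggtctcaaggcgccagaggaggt
RBL1: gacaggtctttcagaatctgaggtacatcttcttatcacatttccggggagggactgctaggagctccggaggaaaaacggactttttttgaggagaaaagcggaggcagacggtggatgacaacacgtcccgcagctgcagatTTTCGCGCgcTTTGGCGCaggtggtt
MCM6: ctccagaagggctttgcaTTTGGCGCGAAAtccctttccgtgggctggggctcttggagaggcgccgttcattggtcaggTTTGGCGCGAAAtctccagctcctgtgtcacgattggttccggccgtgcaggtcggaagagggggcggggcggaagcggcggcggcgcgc

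For E2F7 the 11 bases next to the start, annotated as exon, were left out of the stretch. In RBL1 the matches begin 26 and 16 bases before the start. MCM6 stood at 5.33, 4.58 and 2.93 TPM with si-NC and at 3.96, 5.17 and 2.68 TPM with si-CENPU (log2 -0.10, SE 0.206). A match describes the letters in this window and no binding was measured.

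Among p53 targets, 15 of 18 tested were below 0 (11 under trimmed-mean scaling). At an unadjusted p below 0.05, 1 was lower and 0 were higher. Libraries of the groups did not overlap in the lower direction for 4 of the 18 (PLK3, CDKN1A, POLH and GADD45B), against 3.99% of all genes. PLK3, a stress-responsive polo-like kinase, stood at 10.26, 10.37 and 10.54 TPM against 8.39, 8.29 and 8.55 TPM (log2 -0.28, SE 0.121), a narrow spread in both groups. GADD45A, a growth arrest gene, stood at 23.1, 19.38 and 14.52 TPM against 12.42, 16.17 and 13.14 TPM (log2 -0.41, SE 0.195). Among apoptosis regulators, 2 of 21 passed the unadjusted threshold, in opposite directions. BIK, a BH3-only protein of the endoplasmic reticulum, stood at 21.93, 22.44 and 24.4 TPM against 28.61, 25.73 and 25.89 TPM (log2 0.21, SE 0.0929), and HRK, another BH3-only protein, at 1.16, 1.45 and 1.25 TPM against 1.13, 0.67 and 0.86 TPM (log2 -0.28, SE 0.118). HRK averaged 0.887 TPM with si-CENPU and passed the limit through the si-NC group, so that its direction was favoured by the limit. Of 19 genes of homologous recombination and the Fanconi pathway, 0 passed and the median was -0.02.

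Among signalling lists, the TGF-beta pathway had the lowest median. Ligands, receptors, SMADs and targets made up 20 genes, 15 of them tested, with 14 below 0 and a median of -0.27. Under trimmed-mean scaling 14 were below 0 with a median of -0.20, and after the GC correction 11 with -0.14. Of the 15, 2 were lower at an unadjusted p below 0.05, 0 were higher and none was called. LTBP3, which tethers latent TGF-beta in the matrix, stood at 47.62, 43.44 and 46.66 TPM with si-NC and at 31.78, 37.86 and 33.25 TPM with si-CENPU (log2 -0.41, SE 0.131, adjusted p = 0.951), and ID1 is given above. The receptors TGFBR1 and TGFBR2 had log2 changes of -0.34 and -0.29, and the signal transducers SMAD2, SMAD3 and SMAD4 had -0.35, -0.10 and -0.27. The ligand TGFB1 had -0.09, and ID3, the lone member above 0, 0.09.

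In the other signalling lists medians were nearer to that of all genes. NF-kB and inflammatory genes had a median of -0.13 over 12 tested, with 1 higher and 1 lower at the unadjusted threshold. NFKBIE, an inhibitor of NF-kB, stood at 11.37, 11.03 and 11.25 TPM against 7.6, 9.52 and 7.34 TPM (log2 -0.42, SE 0.118, adjusted p = 0.745). The chemokine CCL2 stood at 0.86, 1.23 and 0.24 TPM against 1.04, 1.77 and 1.37 TPM (log2 0.46, SE 0.206). It averaged 0.777 TPM with si-NC and passed the limit through the si-CENPU group, so that its direction was favoured by the limit. Interferon-stimulated genes had a median of -0.07 over 15, with the antiviral OAS3 at 8.03, 7.86 and 7.53 TPM against 5.56, 6.54 and 6.22 TPM (log2 -0.31, SE 0.115). Notch (9 tested), Wnt (16) and Hippo (16) genes had 0 at the unadjusted threshold. Their medians were -0.04, -0.02 and -0.13, and under trimmed-mean scaling 0.01, 0.03 and -0.07. The Notch ligand JAG2 came nearest, at 8.07, 9.68 and 8.38 TPM against 12.57, 11.51 and 9.37 TPM (log2 0.32, SE 0.149).

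Kinase pathways held single genes. In the MAP kinase list, 1 of 20 passed the unadjusted threshold: the phosphatase DUSP4 at 6.58, 5.73 and 5.01 TPM against 4.41, 4.63 and 4.37 TPM (log2 -0.30, SE 0.127). In the PI3K, AKT and mTOR list, 1 of 19 did: the kinase AKT1 at 68.81, 77.17 and 69.19 TPM against 84.36, 89.8 and 81.09 TPM (log2 0.24, SE 0.0924). Among immediate early genes, 1 of 16 did: IER2 at 51.99, 51.63 and 52.83 TPM against 61.01, 63.99 and 61.64 TPM (log2 0.25, SE 0.0798). In each of these genes the groups did not overlap.

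Among 29 genes of glycoprotein folding in the endoplasmic reticulum, GANAB alone had an unadjusted p below 0.05. The median there was -0.10, and UGGT1, the folding sensor of the same cycle, stood at 3.9, 1.96 and 1.92 TPM against 1.88, 1.99 and 1.31 TPM (log2 -0.36, SE 0.254). Of 20 genes of the oligosaccharyltransferase and the translocon, 18 were below 0 (11 under trimmed-mean scaling), and SEC62 alone passed the unadjusted threshold, at 2.94, 2.84 and 1.56 TPM against 1.25, 1.64 and 1.01 TPM (log2 -0.57, SE 0.253). Of 22 genes of the unfolded protein and integrated stress response, 1 passed. TRIB3, a pseudokinase induced by ATF4, stood at 40.05, 44.79 and 45.89 TPM against 54.88, 60.64 and 53.17 TPM (log2 0.36, SE 0.0897, adjusted p = 0.639), with the groups apart. All 23 heat shock and chaperone genes were below 0, at a median of -0.12, and 17 of them were under trimmed-mean scaling and 17 after the GC correction; 0 had an unadjusted p below 0.05. Of 38 proteasome genes 34 were below 0, 24 under trimmed-mean scaling and 21 after the GC correction, again with 0 at the unadjusted threshold. Among 33 lysosome and autophagy genes TMEM9B alone passed it.

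In the actin cytoskeleton list, 1 of 32 tested genes passed the unadjusted threshold. TPM4, a tropomyosin, stood at 27.15, 28.06 and 17.39 TPM with si-NC and at 48.77, 51.48 and 39.92 TPM with si-CENPU (log2 0.94, SE 0.244, adjusted p = 0.639), and its adjusted p was 0.0425 under trimmed-mean scaling and 0.0155 after the GC correction. The other 31 had a larger p, and 27 of the 32 were below 0. Epithelial junction genes (15 tested, median -0.07) and mesenchymal and matrix genes (16 tested, median -0.08) had 1 gene each at the unadjusted threshold. CRB3, an apical polarity protein, stood at 14.13, 17.61 and 14.93 TPM against 18.29, 20.34 and 16.81 TPM (log2 0.24, SE 0.104), and the laminin chain LAMB2 at 5.09, 4.41 and 4.11 TPM against 5.59, 5.14 and 9.41 TPM (log2 0.44, SE 0.188), where si-CENPU replicate 3 stood apart. Integrins (8 tested) and keratins (7 tested) had 0. KRT7 and KRT17, abundant keratins of these cells, had log2 changes of -0.07 and -0.01.

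Liver functions were mostly not measurable in this line. Of 36 hepatocyte function genes 5 averaged at least 1 TPM, CEBPA, CEBPB, C3, RBP4 and VTN, and 0 of these passed the unadjusted threshold. The transcription factor CEBPB had the smallest p, at 89.86, 71.34 and 69.46 TPM against 51.03, 69.99 and 66.48 TPM (log2 -0.30, SE 0.166). Of 8 oncofetal liver genes 0 passed, and the imprinted RNA H19 stood at 121.05, 131.7 and 135.82 TPM against 136.85, 116.82 and 118.68 TPM. In cholesterol synthesis 1 of 24 passed, TM7SF2, a sterol reductase, at 1.21, 0.69 and 2.14 TPM against 1.77, 2.59 and 2.17 TPM (log2 0.48, SE 0.200), with overlapping groups. In fatty acid and lipid handling (25), glycolysis and hypoxia (27), NRF2 targets (22) and metallothioneins (4) 0 passed, with medians of -0.13, -0.10, -0.11 and -0.16.

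Of the COMMD and retriever-associated genes, which sort endosomal cargo, 1 of 15 passed the unadjusted threshold, COMMD5, at 52.56, 59.6 and 60.09 TPM against 48.08, 42.89 and 46.73 TPM (log2 -0.32, SE 0.0825, adjusted p = 0.652). In the RNA interference machinery, 1 of 10 did. DICER1, the nuclease that makes microRNAs and processes small interfering RNAs, stood at 2.13, 1.36 and 0.93 TPM with si-NC and at 0.91, 0.76 and 0.4 TPM with si-CENPU (log2 -0.53, SE 0.185). The lowest si-NC library and the highest si-CENPU library nearly touched. Each si-CENPU value lay under 1 TPM and DICER1 passed the limit through the si-NC group, so that its direction was favoured by the limit. In 78 cytosolic ribosomal protein genes, 60 nuclear respiratory chain genes, 13 mitochondrially encoded genes, 28 splicing factors and 10 abundant nuclear long noncoding RNAs 0 passed. Their medians were -0.01, -0.05, -0.03, -0.16 and -0.08, and under trimmed-mean scaling 0.07, 0.03, 0.05, -0.08 and -0.00.

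Huh-7 received the same 2 treatments. Its libraries entered the estimate of spread in the fit that ranked the genes above, so that genes with little spread in Huh-7 were favoured and the p-values of the lines are not separate. The Huh-7 differences themselves did not enter the choice. In the Huh-7 columns genes that every cell uses are also listed at or near 0, MT-CO2 at 0 in all 3 si-CENPU libraries and at most 0.04 TPM with si-NC, and SDHA at 0 in all 3 si-NC libraries. A 0 there can thus be a failed estimate, and 191 of the 10700 genes were listed at 0 in all 6 Huh-7 libraries. In all, 2695 of the 10700 averaged under 1 TPM in Huh-7, and the shares of all genes given below include them. Of the 14 higher genes of MHCC-97H, 13 had a log2 change above 0 in Huh-7, against 52.1% of the 10700 genes, 9 had an unadjusted p below 0.05 in the higher direction, against 2.16%, and 9 had si-CENPU libraries all above the si-NC libraries, against 3.67%. The count at p below 0.05 was 5 under trimmed-mean scaling, against 2.54% of all genes, and 8 after the GC correction, against 3.68%. When the 14 were instead chosen by p on the 6 MHCC-97H libraries alone, a choice added after seeing the data, 9 of the 14 were the same genes, 12 were above 0 in Huh-7 and 9 had Huh-7 libraries that did not overlap in that direction. EMC6 stood at 793.64, 816.11 and 744.94 TPM with si-NC and at 1196.4, 1138.1 and 1081.4 TPM with si-CENPU in Huh-7, a log2 change of 0.54 beside 0.56 in MHCC-97H. RGS19 stood at 7.5, 7.99 and 7.36 TPM against 11.92, 11.78 and 10.74 TPM in Huh-7 (0.53 beside 0.74), PCNX3 at 10.7, 13.4 and 13.06 TPM against 19.78, 16.54 and 17.32 TPM (0.50 beside 0.70), and OGFR at 15.56, 17.42 and 19.29 TPM against 27.32, 26.24 and 30.46 TPM (0.66 beside 0.51). The groups did not overlap in any of these 4 in either line, which in MHCC-97H was a condition of the choice.

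Of the 14 lower genes, 9 were below 0 in Huh-7, against 46.1% of all genes. Of the 14, 0 had an unadjusted p below 0.05 in the lower direction, against 1.66%, and 3 had si-CENPU libraries all below the si-NC libraries, against 3.71%. The count at p below 0.05 was 1 under trimmed-mean scaling, against 2.73% of all genes, and 2 after the GC correction, against 3.50%. In the higher direction it was 1 under trimmed-mean scaling, against 2.54%, and 0 after the GC correction, against 3.68%. Chosen on the 6 MHCC-97H libraries alone, 4 of the 14 were the same genes, 7 were below 0 in Huh-7 and 0 had Huh-7 libraries apart in that direction. Of the 14, 9 averaged under 1 TPM in Huh-7, E2F7, GNE, DLG3 and MEGF6 among them, and CDH13 and FOXC2-AS1 were listed at 0 in all 6 libraries. The 14 higher genes were above that level in all but 2 cases, RAP2C-AS1 and FOXD1-AS1. Whether the sets differ in this respect was not tested.

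**Figure D5:**
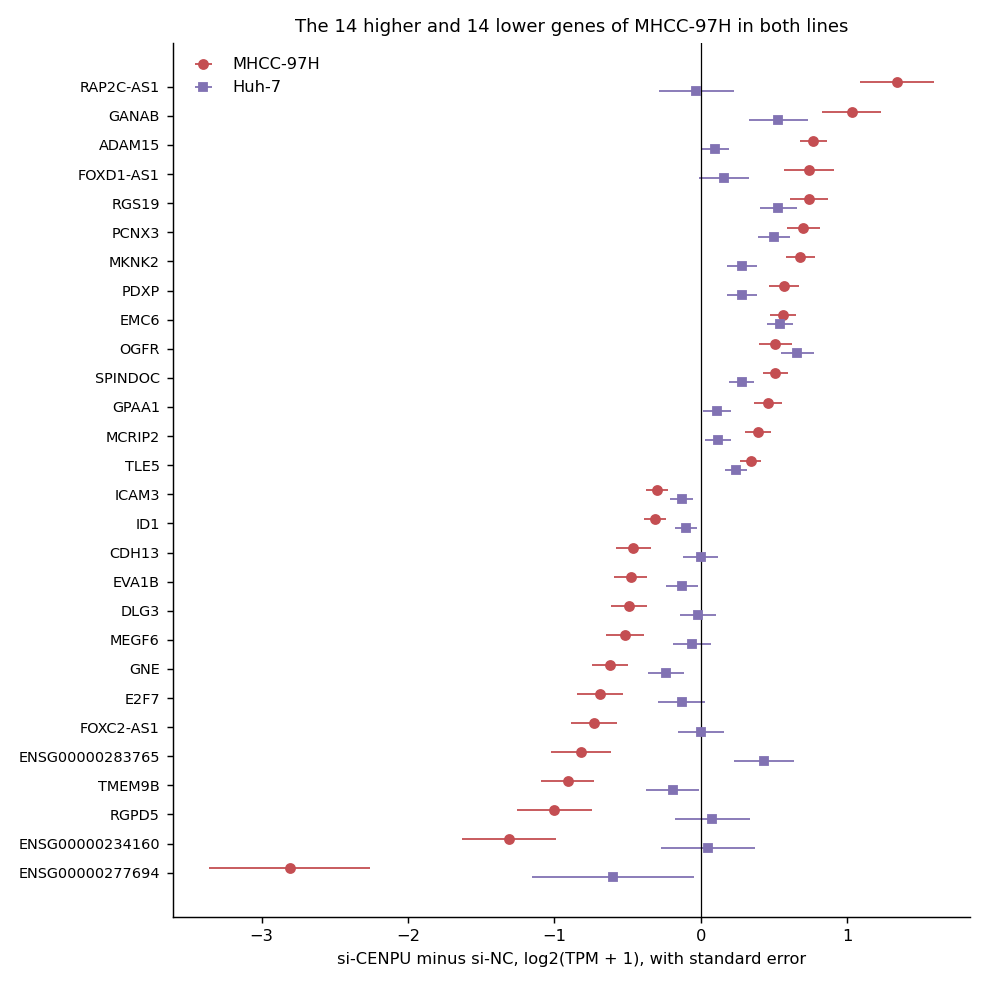
Log2 change (si-CENPU minus si-NC, with standard error) of the 14 higher and 14 lower genes of MHCC-97H in MHCC-97H (red circles) and in Huh-7 (purple squares). In Huh-7, 13 of the 14 higher genes lie above 0, with EMC6 at 0.54 and OGFR at 0.66, while ADAM15 lies at 0.10.

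ADAM15 in Huh-7 stood at 17.08, 20.24 and 18.32 TPM with si-NC and at 21.44, 18.28 and 20.01 TPM with si-CENPU (log2 0.10, SE 0.0904), with overlapping groups. The difference between the lines in log2 change was 0.67 (95% interval 0.39 to 0.95), but across all genes no difference between lines passed the adjustment. The adjusted p of ADAM15 was 0.999, and 353 genes (3.30%) had an unadjusted p below 0.05 while 0 (0%) were called. The other genes with the smallest p for that difference were NR1H3, CROCC, HSPB1, ZFYVE9 and ENSG00000283765. NR1H3 (LXR-alpha), a nuclear receptor for oxysterols, was at 11.56, 14.22 and 11.14 TPM against 12.58, 15.8 and 12.99 TPM in MHCC-97H (log2 0.15), where Huh-7 had 3.35, 7.2 and 7.52 TPM against 1.5, 1.24 and 1.41 TPM (log2 -1.50). CROCC, a component of the ciliary rootlet, had log2 changes of 0.45 in MHCC-97H and -0.47 in Huh-7. ZFYVE9, an anchor protein of SMAD2 and SMAD3, had -0.41 and 0.45. HSPB1, a small heat shock protein, was at 481.47, 512.06 and 527.18 TPM against 504.42, 463.72 and 452.8 TPM in MHCC-97H and at 0, 0.19 and 0 TPM against 0.91, 1.05 and 0.43 TPM in Huh-7.

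The largest changes in size belonged to short RNA genes. Of the 10700 genes, 148 (1.38%) had a log2 change of at least 1 in size. Short RNA genes (annotated as small nuclear, small nucleolar, ribosomal, micro or miscellaneous RNA and the like) made up 86 of these out of 167 such genes, and protein-coding genes 19 of 9358. The median standard error was 1.01 for short RNA genes and 0.182 for protein-coding genes, and 122 of the 167 were listed at 0 in at least 1 library. The 17 genes of 5S ribosomal RNA, near-identical copies that share reads and are uncertain one by one, had log2 changes from -6.00 to 4.22, while their sum was 5631, 4149 and 5940 TPM with si-NC, and with si-CENPU at 4747, 4893 and 5768 TPM. The sums of the groups overlapped. Of the 19 protein-coding genes, G3BP2, a stress granule protein, stood at 3.33, 2.29 and 1.91 TPM against 5.57, 4.43 and 8.6 TPM (log2 1.02, SE 0.274), and FNDC1 at 2.43, 0 and 1.67 TPM against 5.12, 8.64 and 4.25 TPM (log2 1.69, SE 0.501). The zinc finger gene ZNF554 stood at 7.48, 5.66 and 2.86 TPM against 0.83, 1.35 and 2.37 TPM (log2 -1.30, SE 0.358). These 3 were named after their values were seen, and their groups did not overlap.

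The precision set what could be seen. The median standard error of a log2 change was 0.185, from 0.211 for genes at 2 to 5 TPM to 0.0987 for genes at 100 TPM and more. The median 95% interval reached 0.463 to either side of the estimate at 2 to 5 TPM and 0.217 at 100 TPM and more. For a typical gene, smaller differences could not be told from no change. These intervals take no account of the adjustment across genes, so that differences larger than these could also go uncalled. GANAB, at a log2 change of 1.03, was not called (limma adjusted p = 0.335).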

How the data were processed

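Per the labels' protocols, extraction used a PureLink kit and library preparation TruSeq reagents. The submitters' processing notes name HISAT2, StringTie and GRCh38.p13. These sources state no versions, annotation release or strand setting. The deposited table holds TPM per gene for 12 libraries, 3 in each of 4 groups. TPM keeps no depth, so precision was taken from the spread between libraries.

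Values were taken as log2(TPM + 1). Genes with a mean of at least 1 TPM over the 6 MHCC-97H libraries were fitted with limma 3.58.1 in R 4.3.3 over all 12 libraries, with 1 mean per group, a variance trend and Benjamini-Hochberg adjustment at 0.05. This fit assumes equal spread in both lines. Tested on simulated data, the program held its error rate when the spread was equal; when each line had its own spread it called more unchanged genes than the threshold allows, and fewer with MHCC-97H fitted alone. Genes under the limit were compared by exact permutation. Of 60664 identifiers, 60447 had a symbol and 58382 a GENCODE 29 position. Genes named were CENPU, called genes (up to 15 a direction), the 14 higher and 14 lower genes of smallest p with groups apart, up to 4 genes per list by smallest p, 6 genes for the difference between lines and the 10 most abundant, though a few of these are not reported here, while MCM6 was picked for its motif matches with its values known. The genes and the 54 lists were chosen with earlier results of these data known. Alternatives covered pseudocounts, filters, scalings, GC correction, the 6 libraries alone, variance settings, a replicate block and leaving out each library. Figures were drawn with Python 3.11.15 and matplotlib 3.10.9.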

Additional observations from a re-analysis of the deposited data

How the results depend on the processing

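The lone call, ADAM15, was made in 14 of 30 alternative fits, with log2 changes from 0.75 to 0.84 and adjusted p from 0.00497 to 0.657. Calls after si-CENPU numbered 1 as reported, 0 with a pseudocount of 0.1, without the variance trend and on the MHCC-97H libraries alone, 7 with no filter on low values (30267 genes tested), 3 under trimmed-mean scaling, 8 under quantile normalization, 2 after rescaling without mitochondrial and the 100 most abundant genes, and 8 after the GC correction. Trimmed-mean scaling and GC correction on the MHCC-97H libraries alone, both chosen after seeing the data, gave 0 and 0, with 463 and 677 genes at an unadjusted p below 0.05 in place of 407. The cause of these differences was not tested. Leaving out each library in turn gave 0 to 5 calls, with ADAM15 called in 4 of 12 such fits at adjusted p from 0.0322 to 0.150. With 2 libraries left in a group, these fits pool the spread over the groups. Without si-NC replicate 3 of MHCC-97H, 784 genes were lower at an unadjusted p below 0.05, and the median change was -0.15. The median of the mitochondrially encoded genes has no value where these genes are removed.

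For the difference between lines, calls numbered 0 as reported, 6 with no filter, 1 with the limit set over all 12 libraries, and 0 to 2 when each library was left out. List medians below 0 numbered 43 of 45 as reported, 25 under trimmed-mean scaling, and 21 to 44 when each library was left out, the lowest being 21 without si-CENPU replicate 3 of MHCC-97H and 27 without si-NC replicate 1. Of 899 list medians recomputed, 9 moved by more than 1 SD.

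The replicate numbers were not shown to pair the samples. The deviations of same-numbered libraries correlated at -0.0266, -0.0906 and 0.132 in MHCC-97H, and not every sample correlated best with its own number. Replicate 3 of each MHCC-97H group did correlate best with replicate 3 of the other. In each group it also had the lowest median deviation and the lowest mitochondrial share of the TPM. Whether same-numbered libraries were handled together was not tested. With the replicate block, 0 genes were called and 505 had an unadjusted p below 0.05, and with the block and GC correction 0 were called and 627 did.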

Other observations

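The 10 most abundant genes had log2 changes between -0.02 and 0.17. They included the ribosomal protein genes RPL35, RPS2, RPL13, RPS27, RPL8 and RPL10, the long noncoding identifiers ENSG00000280614 and ENSG00000280441, and GSTP1, a glutathione transferase. These long noncoding identifiers together took from 4.63% (si-NC replicate 2) to 7.64% (si-CENPU replicate 3) of the TPM. The part of this share in the values of other genes was not tested.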
